A study of Mus musculus with 25 samples.

Results

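The genes described here are 9 interferon response genes, Tlr7, Ifih1, Irf7, Isg15, Ifit1, Ifit3, Rsad2, Xaf1 and Ifi44. They were measured in ribosome-bound RNA pulled down from mouse kidney for its podocytes, the epithelial cells that wrap the glomerular capillaries. Tubule markers were also strong in this RNA, with levels given below. The 9 genes were found by their symbols in the probe annotation, as probe sets that carried a single symbol. Of the 9 genes, 7 had at least 1 such probe set, and these 7 are among 17097 genes named on the array. All 7 were among the 11968 genes kept after the dimmest 30% were left out. Isg15 and Ifi44 had no probe set under those symbols and were not analysed here.

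Every mouse carried the Tg:Col1a1-eGFPL10a transgene, in which a collagen 1α1 promoter and enhancer drive a green fluorescent protein fused to ribosomal protein L10a, so that ribosomes can be pulled down from the cells where that promoter is active (translating ribosome affinity purification, TRAP). The mice were knock-in (KI) animals from a cross with the Actn4+/tm1.1Plk line, which carries a mutation in the gene for the actin crosslinker alpha-actinin-4, or wild-type (WT) animals with the same transgene. Polysomal RNA was taken at 2, 5 and 44 weeks, which the labels also give as postnatal days 14, 35 and 300. There were 4 KI and 4 WT arrays at 2 weeks, 4 KI and 5 WT arrays at 5 weeks, and 4 KI and 4 WT arrays at 44 weeks. The labelled strain is C57/129sv and the labelled sex is unknown. The labels leave unsaid whether a KI mouse had 1 or 2 copies of the mutant allele. They also leave unsaid whether arrays came from different animals, so every p-value measures the spread between samples that may be technical repeats. Actn4 has no named probe set in the annotation used here, so the mutated gene gave no check of the labels.

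Interferons are secreted alarm signals. Sensors such as Ifih1 and Tlr7 recognise viral or misplaced RNA and switch on transcription factors of the IRF family, which drive interferon genes. Secreted type I interferon then acts through its receptor, the JAK kinases and a transcription factor complex with Irf9, which binds a DNA element called the interferon-stimulated response element (ISRE) and turns on effectors such as the Ifit proteins and Rsad2. In the kidney, interferon response genes are known from glomerular disease with immune activation, and podocytes can respond to interferon.

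The promoters of 4 of the genes are shown because they place the response element beside the results: Irf7 and Ifih1, the members that differed between KI and WT at 5 weeks, and Ifit1 and Ifit3, which carry the element close upstream of their start and did not pass the test in any comparison. Each is 300 bases from RefSeq, most of them upstream of the start of the gene and the rest just after it, on build GRCm38.p6, printed 5′ to 3′ on the strand of the gene. Capitals mark matches to an ISRE core spelled GAAANNGAAA, read on either strand, so that a match on the opposite strand appears as TTTCNNTTTC.
Irf7, chr7:141266375-141266674, minus strand: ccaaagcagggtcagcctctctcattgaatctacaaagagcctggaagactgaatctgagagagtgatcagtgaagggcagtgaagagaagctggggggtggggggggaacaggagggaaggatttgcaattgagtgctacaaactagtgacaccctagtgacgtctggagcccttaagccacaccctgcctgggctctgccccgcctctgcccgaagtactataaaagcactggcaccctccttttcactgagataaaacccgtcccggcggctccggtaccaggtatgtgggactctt
Ifih1, chr2:62646206-62646505, minus strand: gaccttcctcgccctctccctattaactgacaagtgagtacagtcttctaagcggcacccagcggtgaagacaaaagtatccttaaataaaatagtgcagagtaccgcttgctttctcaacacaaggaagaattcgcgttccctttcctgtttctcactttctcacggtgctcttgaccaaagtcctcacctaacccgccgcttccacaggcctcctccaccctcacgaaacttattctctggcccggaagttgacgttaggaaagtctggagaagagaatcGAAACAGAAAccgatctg
Ifit1, chr19:34640639-34640938, plus strand: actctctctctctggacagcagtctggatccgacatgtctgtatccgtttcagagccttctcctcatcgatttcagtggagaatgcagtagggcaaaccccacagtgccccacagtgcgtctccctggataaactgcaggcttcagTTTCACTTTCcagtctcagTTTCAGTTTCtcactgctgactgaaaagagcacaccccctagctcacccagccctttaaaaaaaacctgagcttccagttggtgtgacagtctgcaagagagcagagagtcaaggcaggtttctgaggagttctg
Ifit3, chr19:34583279-34583578, plus strand: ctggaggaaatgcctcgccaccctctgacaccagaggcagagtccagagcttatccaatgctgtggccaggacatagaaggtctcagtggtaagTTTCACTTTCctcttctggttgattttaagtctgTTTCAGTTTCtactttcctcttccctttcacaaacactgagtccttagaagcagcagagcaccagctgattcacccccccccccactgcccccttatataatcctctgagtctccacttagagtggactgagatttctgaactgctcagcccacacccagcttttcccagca
Ifit1 held 2 matches, at -104 and -85 bases from its start. Ifit3 held 2 matches, at -156 and -122. Ifih1 held 1 match, at 33 bases after its start, and Rsad2, not printed, held 1 match at -120. The windows of Irf7 and Xaf1 held none. Matches did not overlap each other in these windows. Of 32851 promoters of this length in the table, 1131 (3.44%) held the core. A second motif, the gamma-activated sequence spelled TTCNNNGAA, stood in 8.30% of them and in none of the 6 windows read for the measured members. A match describes letters only and was not tested for binding.

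All levels and differences below are on the log2 scale of the deposited values. Differences were tested with limma across all 11968 genes, and the threshold was 0.05 for the p adjusted by the Benjamini-Hochberg method. At 2 weeks no gene on the array passed between KI and WT (0% of 11968, against 613 at an unadjusted p under 0.05), and none of the 7 members did in its brightest probe set, with or without the adjustment. At 5 weeks 2 of the 7 passed, 1 higher and 1 lower in KI, against 22% of all genes. At 44 weeks 0 of the 7 passed, with or without the adjustment, against 0.0251% of all genes (762 at an unadjusted p under 0.05). The median KI minus WT difference of the 7 members was -0.27 at 5 weeks, beside 0.06 over all genes tested, and 4 of the 7 differences were negative. The plot of all arrays shows how each member was spread.

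**Figure D1:**
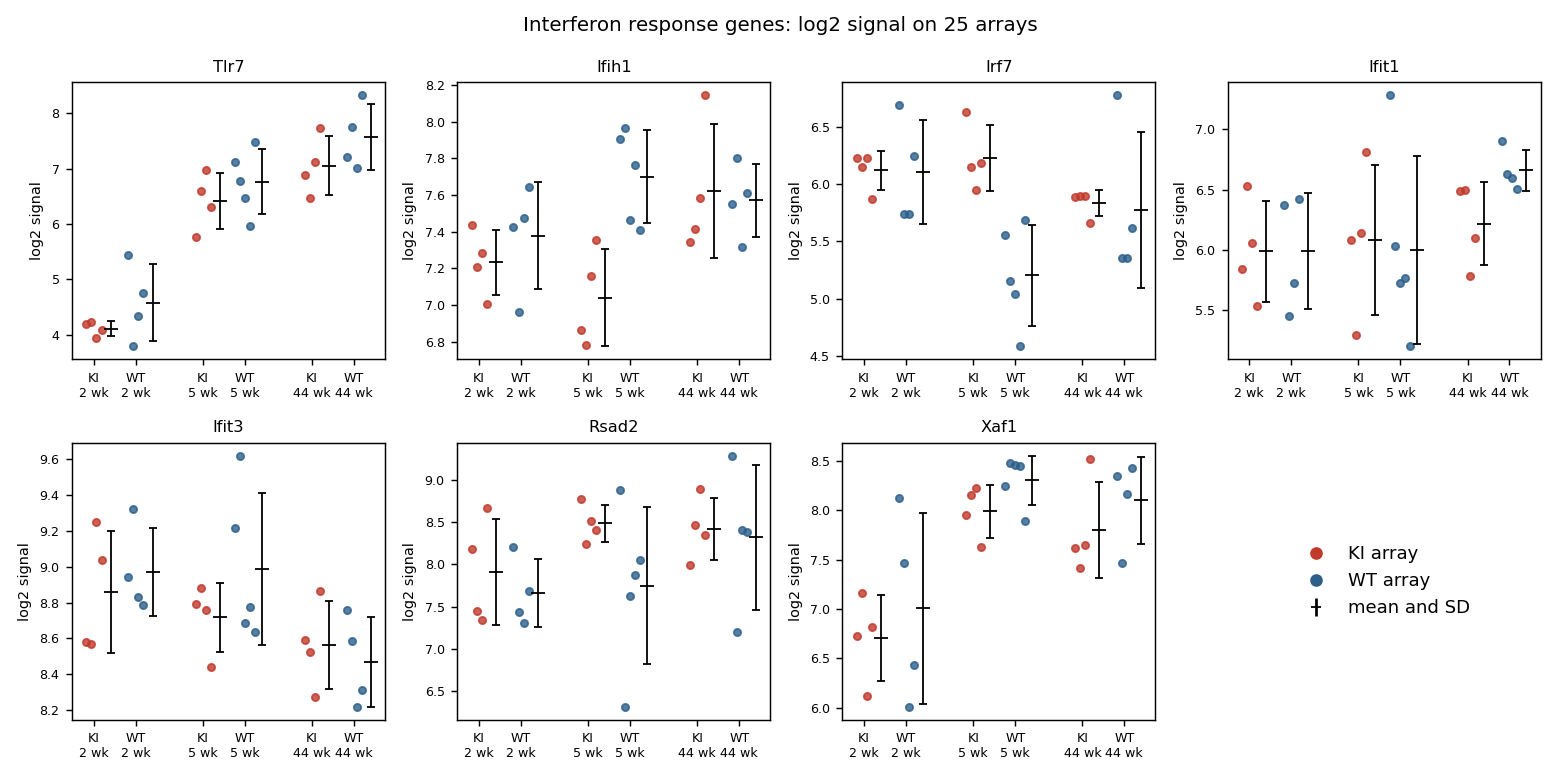
Log2 signal (vertical axis) of the 7 measured interferon response genes on each of 25 arrays, by genotype and age (horizontal axis); red points are KI arrays, blue points WT arrays, and the black bar is the mean with its SD. Tlr7 lies lowest at 2 weeks in both genotypes, and at 5 weeks the KI arrays of Irf7 lie above all WT arrays while those of Ifih1 lie below them.

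Irf7, the transcription factor that amplifies type I interferon production, was the member that rose in KI at 5 weeks. Its log2 signal was 6.63, 6.15, 5.95 and 6.19 on the KI arrays, against 5.56, 5.16, 5.04, 4.58 and 5.69 on the WT arrays. The groups did not overlap, and the lowest WT values were those of arrays 7, 8 and 9. The difference was 1.02 ± 0.26 (SE, 95% interval 0.48 to 1.56), a 2.03-fold higher level in KI (limma adjusted p = 0.0102). At 2 weeks KI averaged 6.12 ± 0.17 and WT 6.11 ± 0.46 (SD, n = 4 each). At 44 weeks KI averaged 5.83 ± 0.12 and WT 5.78 ± 0.68 (SD, n = 4 each), with 1 WT array, number 15, at 6.78 and the other 3 between 5.35 and 5.62.

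The 5-week gap in Irf7 stood beside a low WT group more than a high KI group. KI at 5 weeks lay 0.11 ± 0.27 (SE) above KI at 2 weeks (limma adjusted p = 0.83). WT at 5 weeks fell by 0.90 on the log2 scale relative to WT at 2 weeks (SE 0.26, limma adjusted p = 0.0107), and the arrays of the 2 ages did not overlap. That fall was not called with a sex covariate (-0.66, limma adjusted p = 0.0598). Without WT arrays 7, 8 and 9, the lowest of that group, it was bound to shrink and was not called (-0.48, limma adjusted p = 0.36). The genotype and age comparisons use the same 5 WT arrays of 5 weeks. The genotype difference at 5 weeks exceeded that at 2 weeks by 1.01 ± 0.38 (SE), which did not pass (limma adjusted p = 0.17). With the sex covariate that excess was 0.57 ± 0.39 (SE, limma adjusted p = 0.46). The 5-week genotype difference itself was then 0.88 ± 0.25 (SE, limma adjusted p = 0.018). The genotype difference at 44 weeks minus that at 5 weeks was -0.97 ± 0.38 (limma adjusted p = 0.18). None of the 7 members passed in either difference of differences, where 0.0251% of all genes passed for 5 minus 2 weeks and 0% for 44 minus 5 weeks (2242 and 2335 genes at an unadjusted p under 0.05).

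Ifih1, the cytosolic sensor of long double-stranded RNA also called MDA5, was the member that fell in KI at 5 weeks. Its log2 signal was 6.86, 6.78, 7.16 and 7.36 on the KI arrays, against 7.90, 7.97, 7.46, 7.76 and 7.41 on the WT arrays. No KI array reached the lowest WT array, although KI array 26 and WT array 10 lay close together. The difference was -0.66 ± 0.17 (SE, 95% interval -1.02 to -0.30), a 1.58-fold lower level in KI (limma adjusted p = 0.0124). With only the 9 arrays of 5 weeks in the fit, the same difference had a limma adjusted p of 0.054. At 44 weeks the log2 signal was 7.34, 7.42, 7.58 and 8.15 on the KI arrays, against 7.55, 7.80, 7.32 and 7.61 on the WT arrays, which overlapped.

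Within KI mice Ifih1 rose between 5 and 44 weeks, by 0.58 ± 0.18 (SE, limma adjusted p = 0.034), with 1 of 7 members called against 16.8% of all genes. The arrays of the 2 ages overlapped, since KI array 31 of 44 weeks, at 7.34, lay below KI array 26 of 5 weeks. The call rested on single arrays: it was lost when KI array 23, 24, 25, 33 or 34 was left out, with differences between 0.41 and 0.62. In WT mice the change between the same ages was -0.13 ± 0.17 (SE, limma adjusted p = 0.63). The genotype difference in Ifih1 moved by 0.71 ± 0.25 (SE) between these ages, which did not pass (limma adjusted p = 0.15).

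**Figure D2:**
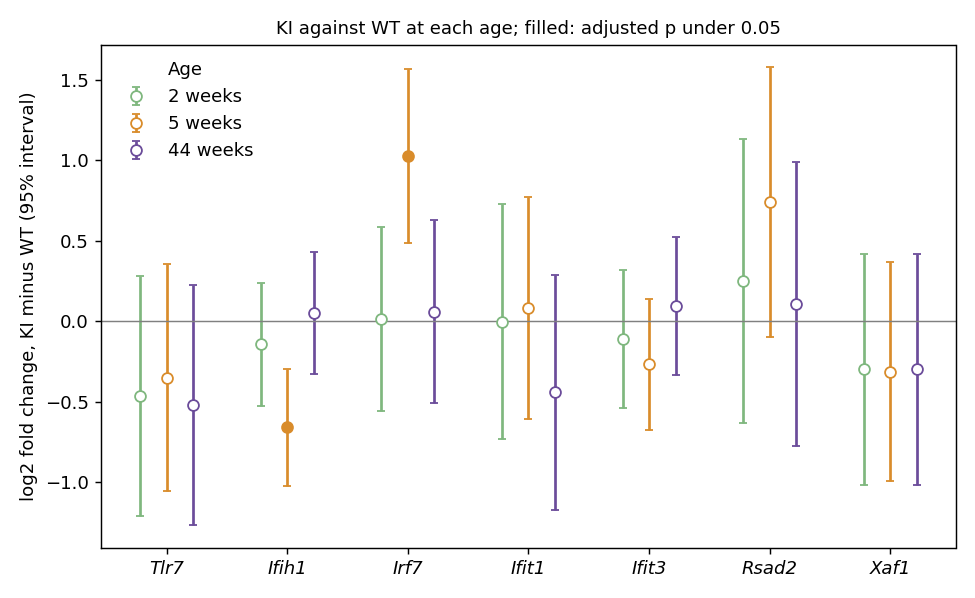
Log2 fold change of KI minus WT (vertical axis) for each of the 7 genes (horizontal axis) at 2, 5 and 44 weeks; points are limma estimates, bars their 95% intervals, and filled points passed at an adjusted p under 0.05. The filled points are Irf7 at 1.02 and Ifih1 at -0.66, both at 5 weeks.

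Markers of other kidney cells moved with the genotype at 5 weeks, and in bulk RNA fewer cells of a type and less RNA per cell cannot be told apart. Over all genes tested, 14.3% rose in KI. Of the markers tested, 6 of 13 leukocyte genes, 6 of 13 endothelial genes, 3 of 8 proximal tubule genes, 3 of 11 distal tubule genes and 4 of 8 mesangial and smooth muscle genes rose in KI, and no other marker of these lists was called. The mean log2 signal over the 18 measured leukocyte markers ran from 5.32 to 5.48 on the KI arrays and from 4.51 to 5.33 on the WT arrays. Over the 13 endothelial markers it ran from 7.10 to 7.49 on the KI arrays and from 5.87 to 6.89 on the WT arrays, lowest on WT arrays 7, 8 and 9. The 9 podocyte markers measured averaged 11.02 ± 0.06 in KI (SD, n = 4) and 11.11 ± 0.10 in WT (SD, n = 5), and 1 rose and 1 fell. The 8 proximal tubule markers averaged 10.70 ± 0.20 in KI and 9.93 ± 0.45 in WT (SD, same arrays). For the 11 distal tubule markers these were 8.24 ± 0.11 and 7.52 ± 0.35. Signals on these arrays are therefore not from podocytes alone. With the leukocyte mean as a covariate the Irf7 difference was 0.60 ± 0.27 (SE, limma adjusted p = 0.26) and the Ifih1 difference -0.51 ± 0.20 (limma adjusted p = 0.21). Without WT arrays 7, 8 and 9 they were 0.61 ± 0.32 (limma adjusted p = 0.44) and -0.62 ± 0.23 (limma adjusted p = 0.29). This setting was chosen after the data were seen and kept only WT arrays 6 and 10 at 5 weeks. Arrays 7, 8 and 9 held the lowest WT values of Irf7, so its difference was bound to be smaller without them. The Ifih1 difference was near its size without them, and neither passed.

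Averaged over the 3 ages, none of the 7 members passed between KI and WT (3 at an unadjusted p under 0.05), against 5.32% of all genes. Irf7 lay 0.37 ± 0.16 (SE) higher in KI (limma adjusted p = 0.14), Ifih1 lay at -0.25 ± 0.10 (limma adjusted p = 0.13), and Tlr7 at -0.45 ± 0.20 (limma adjusted p = 0.17). Without WT array 15 of 44 weeks, the array with the high Irf7 value, the Irf7 difference was bound to grow. It then passed in this average at 0.48 ± 0.13 (SE, limma adjusted p = 0.0167).

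Tlr7, the endosomal sensor of single-stranded RNA, which is known mainly from immune cells, differed between ages. At 2 weeks its log2 signal was 4.20, 4.22, 3.94 and 4.08 on the KI arrays, against 5.43, 3.79, 4.34 and 4.75 on the WT arrays. At 5 weeks it was 5.77, 6.59, 6.98 and 6.30 on the KI arrays, against 7.11, 6.78, 6.47, 5.95 and 7.48 on the WT arrays. In this brightest probe set every array of 5 weeks lay above every array of 2 weeks in both genotypes. There, 6 of the 8 arrays of 2 weeks were below 4.603, the limit under which genes were left out as dim. Tlr7 was thus kept for testing through its signal at the later ages. The limit is a cut on gene means and was not measured as a detection limit, so how exact the 2-week values under it are is not known. At 44 weeks it was 6.89, 6.47, 7.13 and 7.73 on the KI arrays, against 7.20, 7.75, 7.01 and 8.33 on the WT arrays, and all 8 of these values lay within or above the range of 5 weeks.

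In KI mice the fitted Tlr7 rise between 2 and 5 weeks was 2.30 ± 0.36 (SE, limma adjusted p = 0.00032), where 2 of the 7 members, Tlr7 included, were called against 13.7% of all genes. In WT mice it was 2.18 ± 0.34 (SE, limma adjusted p = 9.2e-05), where 3 of the 7 members, Tlr7 included, were called against 33.9% of all genes. With no filter on dim genes both were called too (limma adjusted p = 0.00043 in KI and 0.00012 in WT). All 4 KI arrays and 2 of the 4 WT arrays of 2 weeks lay below the limit for dim genes. With those arrays raised to that limit, the group means of the brightest probe set differed 3.50-fold in KI and 3.77-fold in WT. These are estimates and not lower bounds for the gene. Without such raising, the other 2 probe sets gave 2.34-fold and 2.00-fold in WT, and 8.77-fold and 9.10-fold in KI. The fitted rises differed between genotypes by 0.12 ± 0.50 (SE, 95% interval -0.91 to 1.14, limma adjusted p = 0.92). Between 5 and 44 weeks no further change passed: Tlr7 lay 0.64 ± 0.36 higher at 44 weeks in KI (limma adjusted p = 0.22) and 0.81 ± 0.34 higher in WT (limma adjusted p = 0.095). In WT mice 0 of the 7 members passed between those ages (3 at an unadjusted p under 0.05), against 20.1% of all genes. Without WT array 10, the highest of the WT arrays of 5 weeks, the Tlr7 difference there was bound to grow. It then passed at 0.99 ± 0.35 (SE, limma adjusted p = 0.039).

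Leukocyte markers are given beside Tlr7 because this sensor is known from immune cells. Their mean log2 signal was 5.13 ± 0.16 in KI at 2 weeks, 5.42 ± 0.07 in KI at 5 weeks and 5.60 ± 0.13 in KI at 44 weeks (SD, n = 4 each). In WT it was 5.00 ± 0.11 at 2 weeks (SD, n = 4), 4.97 ± 0.31 at 5 weeks (SD, n = 5) and 5.44 ± 0.39 at 44 weeks (SD, n = 4). Between 2 and 5 weeks 1 of the 13 leukocyte markers tested rose and 1 fell in each genotype. With their mean as a covariate the Tlr7 rise was 2.30 ± 0.40 in KI (SE, limma adjusted p = 0.0011) and 2.18 ± 0.35 in WT (limma adjusted p = 0.00011). That mean covers 18 markers, of which only 13 were bright enough to be tested, and it lay not far above the limit of 4.603. So dim a mean cannot show whether Tlr7 followed leukocytes, and this was not tested. The arrays with a high signal of Y-linked genes numbered 1 of 4 in KI and 4 of 4 in WT at 2 weeks, and 3 of 4 in KI and 2 of 5 in WT at 5 weeks. At 44 weeks they numbered 3 of 4 in KI and 1 of 4 in WT, so this sex call was unbalanced between genotypes. Tlr7 lies on the X chromosome, and with this sex call as a covariate its rise was 2.47 ± 0.37 in KI and 1.98 ± 0.36 in WT (SE), both called.

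Tlr7 had 2 further probe sets, both designed from the same transcript record, and they differed from the first in WT. In KI the rise between 2 and 5 weeks was 3.13 ± 0.50 in 1449640_PM_at and 3.19 ± 0.51 in 1419848_PM_x_at (SE), both called. In WT the difference between those ages was 1.23 ± 0.48 (limma adjusted p = 0.073) and 1.00 ± 0.49 (limma adjusted p = 0.16). The difference in KI exceeded that in WT by 1.91 ± 0.69 and 2.19 ± 0.71 (SE), neither called (limma adjusted p = 0.22 and 0.18). WT array 1 of 2 weeks stood apart: it read 6.87 and 6.09 in these probe sets, while the other 3 WT arrays of that age lay between 3.93 and 4.59 in 1449640_PM_at and between 3.35 and 4.22 in 1419848_PM_x_at. At 2 weeks the KI minus WT difference was -1.12 ± 0.50 in 1449640_PM_at and -1.20 ± 0.51 in 1419848_PM_x_at (SE, limma unadjusted p = 0.036 and 0.029, adjusted p = 0.999 for both), against -0.47 ± 0.36 in the brightest probe set (limma unadjusted p = 0.20). At 5 weeks the difference was -0.35 ± 0.34 in the brightest probe set, 0.78 ± 0.48 in 1449640_PM_at and 0.99 ± 0.49 in 1419848_PM_x_at (SE), so its sign depended on the probe set and none was called. The plot of the Tlr7 probe sets shows the low signal of the KI arrays at 2 weeks in all of them. In WT the arrays of 2 and 5 weeks overlapped in the 2 further probe sets, where WT array 9 of 5 weeks read 4.76 and 3.88.

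**Figure D3:**
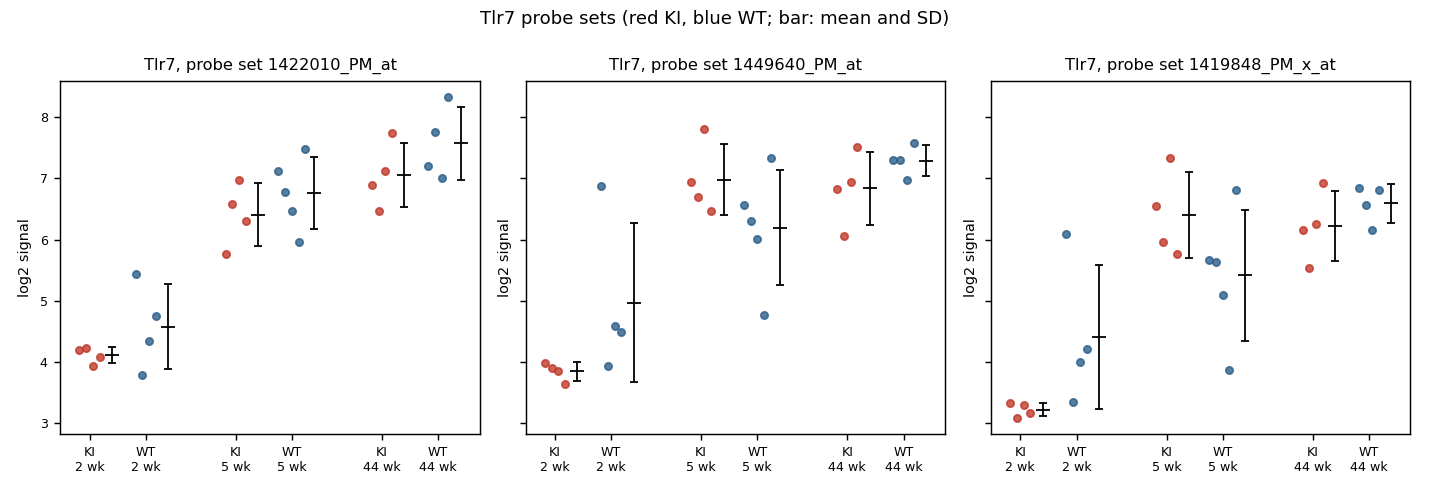
Log2 signal (vertical axis) of the 3 Tlr7 probe sets, 1 per panel, on each array by genotype and age; red points are KI, blue points WT, and black bars the mean with its SD. All KI arrays of 2 weeks lie between 3.09 and 4.22 across the 3 panels, and WT array 1 stands highest among the 2-week arrays in each.

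Xaf1, an interferon-inducible protein that binds the apoptosis inhibitor XIAP, was the other member that was called with age in both genotypes, in its brighter probe set, 1443698_PM_at. Its log2 signal in KI was 7.95, 8.15, 8.23 and 7.62 at 5 weeks, against 6.72, 7.17, 6.12 and 6.82 at 2 weeks. In WT it was 8.24, 8.47, 8.46, 8.44 and 7.89 at 5 weeks, against 8.12, 7.46, 6.01 and 6.43 at 2 weeks. The KI arrays of the 2 ages did not overlap, whereas WT array 1 of 2 weeks lay within the 5-week range. The difference was 1.28 ± 0.34 in KI (SE, limma adjusted p = 0.0167) and 1.30 ± 0.33 in WT (limma adjusted p = 0.0045). The KI call was lost without KI array 21 (1.08, limma adjusted p = 0.069) or KI array 25 (1.20, limma adjusted p = 0.051), and the WT call without WT arrays 7, 8 and 9 (1.06, limma adjusted p = 0.14). Between KI and WT the probe set did not pass at any age, with differences between -0.31 and -0.30.

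The second Xaf1 probe set, 1443621_PM_at, went the other way, so no direction with age can be given for the gene as a whole. Its difference between 5 and 2 weeks was -2.96 ± 1.24 in KI (SE, limma adjusted p = 0.16) and -2.17 ± 1.18 in WT (limma adjusted p = 0.22). With the mean of both probe sets the gene gave -0.84 in KI and -0.43 in WT, neither called. Between KI and WT, 1443621_PM_at also had the opposite sign to the brighter probe set. Its difference was 1.81 ± 1.24 at 2 weeks, 1.01 ± 1.18 at 5 weeks and 0.51 ± 1.24 at 44 weeks (SE), none called. The wide errors came from a signal that was either low or high: no array lay between 4.33 and 6.37, and 10 of 25 arrays lay above that gap. The arrays above it numbered 4 of 4 in KI and 2 of 4 in WT at 2 weeks, 1 of 4 in KI and 0 of 5 in WT at 5 weeks, and 2 of 4 in KI and 1 of 4 in WT at 44 weeks. The brighter probe set was mostly lower on the arrays above the gap, at 6.01 to 7.62, against 7.46 to 8.51 on the arrays below it. Since the ages differed in how many arrays lay above the gap, the age calls of the brighter probe set were not separated from this split. The plot of both probe sets shows the gap.

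**Figure D4:**
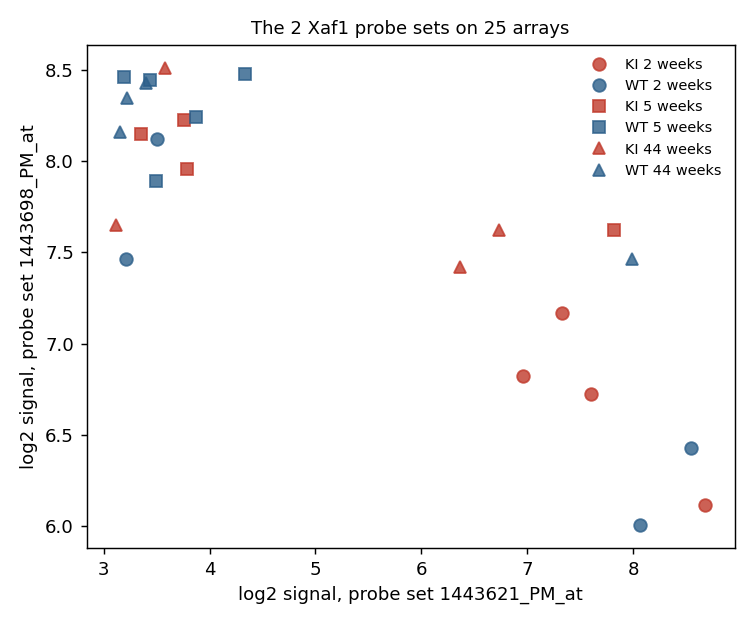
Log2 signal of the brighter Xaf1 probe set 1443698_PM_at (vertical axis) against that of 1443621_PM_at (horizontal axis) on 25 arrays; colour gives the genotype (red KI, blue WT) and shape the age. No array lies between 4.33 and 6.37 on the horizontal axis, and the 10 arrays to the right come from 5 of the 6 groups.

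The split in 1443621_PM_at was shared by genes from the same chromosome, which was looked at after the values were seen. Over all 28898 singly named probe sets and 25 arrays, those most like it were of 6330403K07Rik (Pearson r = 0.97), Tm4sf5 (r = 0.92), Tnfsf13 (r = -0.89), Ctbp2 (r = 0.85) and Zzef1 (r = -0.84). Of the 10 most alike, 7 lie on chromosome 11, where Xaf1 lies, and 5 lie within 150 protein-coding genes of Xaf1 in the RefSeq order. Over all singly named probe sets 7.96% lie on chromosome 11 and 1.26% within that distance. For the brighter probe set the same counts were 4 and 3 of 10, with Tnfsf13 (r = 0.90) first. These are descriptions over arrays that share groups and ages. What separates the arrays was not tested, and the labels give the mixed strain for all of them alike.

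The effectors Ifit1, Ifit3 and Rsad2 were not called in any of the 10 comparisons. Ifit1, which binds viral RNA ends, showed its widest gap between genotypes at 44 weeks, with a log2 signal of 6.49, 6.50, 5.78 and 6.10 on the KI arrays, against 6.91, 6.63, 6.59 and 6.50 on the WT arrays. The ranges nearly touched, with the highest KI array at 6.497 and the lowest WT array at 6.503. The difference of -0.44 ± 0.35 (SE) did not pass (limma adjusted p = 0.91). Ifit1 varied most among WT arrays of 5 weeks, from 5.19 to 7.29. Its rise between 5 and 44 weeks in WT was 0.66 ± 0.33 (SE, limma adjusted p = 0.17). Without array 6, the highest of the 5-week arrays, that rise was bound to grow, and it passed at 0.98 ± 0.28 (SE, limma adjusted p = 0.022).

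Ifit3, a partner protein of Ifit1, had a narrow spread, with group means between 8.47 ± 0.25 (SD, n = 4, WT at 44 weeks) and 8.99 ± 0.42 (SD, n = 5, WT at 5 weeks). At 44 weeks its log2 signal was 8.59, 8.53, 8.27 and 8.87 on the KI arrays, against 8.76, 8.59, 8.22 and 8.31 on the WT arrays. Its change between 5 and 44 weeks in WT was -0.52 ± 0.20 (SE, limma adjusted p = 0.064). That change passed after quantile normalization (-0.58, limma adjusted p = 0.036) and after centring arrays on their median (-0.62, limma adjusted p = 0.026). It also passed without WT array 8 or 10, the lowest arrays of 5 weeks, whose removal enlarges the fall.

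Rsad2, the antiviral enzyme viperin, averaged 8.48 ± 0.22 in KI (SD, n = 4) and 7.75 ± 0.93 in WT (SD, n = 5) at 5 weeks. Its log2 signal there was 8.77, 8.24, 8.52 and 8.41 on the KI arrays, against 8.88, 6.31, 7.62, 7.87 and 8.04 on the WT arrays. The KI arrays lay close together and WT array 7 stood lowest of all 25 arrays. The difference was 0.74 ± 0.40 (SE, limma adjusted p = 0.19), and a second probe set, 1421009_PM_at, gave 0.74 ± 0.40. With the endothelial mean as a covariate the difference was -0.58 ± 0.21 (SE, limma adjusted p = 0.14), opposite in sign to that without it. That mean ran from 7.10 to 7.49 in KI and from 5.87 to 6.89 in WT, so the fit compares the groups at a level they did not share. Tek, one of its markers, is also among the genes most like Rsad2 below. What changed the sign was not tested. The third probe set, 1421008_PM_at, stayed between 3.69 and 4.51 on all arrays, below the limit for dim genes, and at 2 weeks KI minus WT was 0.33 ± 0.14 in it (SE, limma unadjusted p = 0.027, adjusted p = 0.999). Between 2 and 5 weeks in WT, Rsad2 passed with the endothelial mean as a covariate (0.53 ± 0.17, SE, limma adjusted p = 0.023) and did not pass without it.

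At 2 weeks Ifit1 averaged 5.99 ± 0.42 in KI and 5.99 ± 0.48 in WT, Ifit3 8.86 ± 0.34 in KI and 8.97 ± 0.24 in WT, and Rsad2 7.91 ± 0.62 in KI and 7.66 ± 0.40 in WT (SD, n = 4 each). At 44 weeks Rsad2 averaged 8.42 ± 0.37 in KI and 8.32 ± 0.85 in WT (SD, n = 4 each), where WT array 15 read 9.28 and WT array 16 read 7.20. When the 6 group means of each member were put in order, neighbouring groups overlapped in their arrays in every member except at 2 places. One was Ifit1, whose highest group, WT at 44 weeks, was barely clear of KI at 44 weeks (lowest WT array 6.503, highest KI array 6.497). The other was Tlr7, whose 5-week and 44-week groups all stood above WT at 2 weeks. How often such gaps occur over all genes was not counted. The highest mean was that of KI at 5 weeks for Irf7 and Rsad2, that of WT at 5 weeks for Ifih1, Ifit3 and Xaf1, and that of WT at 44 weeks for Ifit1 and Tlr7.

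The genes whose levels followed each member most closely differed from member to member. For Rsad2 the 5 most alike over 25 arrays were Ly6c1 (r = 0.86), Tek (r = 0.86), Adgrl4 (r = 0.86), Car12 (r = 0.85) and Gimap4 (r = 0.84), of which Tek, the angiopoietin receptor, and Adgrl4 are known from endothelial cells. With group means removed their r ran from 0.86 to 0.92. For Tlr7 the closest were Tppp (r = 0.97), Irak1 (r = 0.93), Fa2h (r = 0.93), Ermard (r = 0.93) and Slc41a2 (r = 0.93). Of these Irak1, a kinase that acts downstream of Toll-like receptors, lies on the X chromosome as Tlr7 does. With group means removed their r ran from 0.57 (Slc41a2) to 0.82 (Ermard), with Irak1 at 0.74. For Irf7 the closest were Flii (r = 0.88), Klhl22 (r = 0.86) and Lgals3bp (r = 0.86), and for Ifih1 Ube2d3 (r = 0.83). Ifit1 and Ifit3 had looser companions, Mtif2 at r = 0.69 and Fgfbp3 at r = 0.74. The members themselves did not move as 1 block: over their 21 pairs r ran from -0.44 (Irf7 and Ifih1) to 0.74 (Xaf1 and Tlr7), with a median of 0.14. All of these are descriptions over arrays that share groups, ages and cell makeup.

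The rest of the interferon pathway was read from a list of 89 further genes, of which 68 were tested, 16 were left out as dim and 5 had no named probe set. At 5 weeks 9 rose and 5 fell in KI, which is 20.6% of the 68, close to the 22% of all genes. Their median difference was 0.20, beside 0.06 over all genes. The genes that rose were led by Ly6e (1.32 ± 0.39, SE), a membrane protein induced by interferon, followed by Helz2 (0.78 ± 0.26), Myd88 (0.76 ± 0.20), the adaptor of most Toll-like receptors, and Uba7 (0.75 ± 0.25), the enzyme that activates Isg15. Unc93b1, which carries Tlr7 to endosomes, rose by 0.52 ± 0.16, and Ifngr2, a chain of the interferon gamma receptor, by 0.55 ± 0.18. The 5 that fell were Trim25 (-0.71 ± 0.24), an activator of RNA sensing, Gbp7 (-0.66 ± 0.18), Eif2ak2 (-0.64 ± 0.23), the double-stranded RNA kinase PKR, Irf2 (-0.59 ± 0.17), a repressor of interferon genes, and Nmi (-0.40 ± 0.14). None of the 68 passed without WT arrays 7, 8 and 9, nor with the leukocyte or the endothelial mean as a covariate. The endothelial means of KI and WT did not overlap at 5 weeks, which limits that fit. With only the arrays of 5 weeks in the fit 0 rose and 2 fell, and with array weights 19 rose and 8 fell. Single arrays moved the counts as well: 3 rose and 2 fell without WT array 9 or without KI array 23, 3 rose and 4 fell without KI array 24, 5 rose and 1 fell without WT array 7, 6 rose and 2 fell without WT array 8, 6 rose and 3 fell without KI array 25, 7 rose and 2 fell without KI array 26, 12 rose and 3 fell without WT array 6, and 17 rose and 7 fell without WT array 10. After quantile normalization 5 rose and 5 fell, and after centring on array medians 7 rose and 6 fell.

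**Figure D5:**
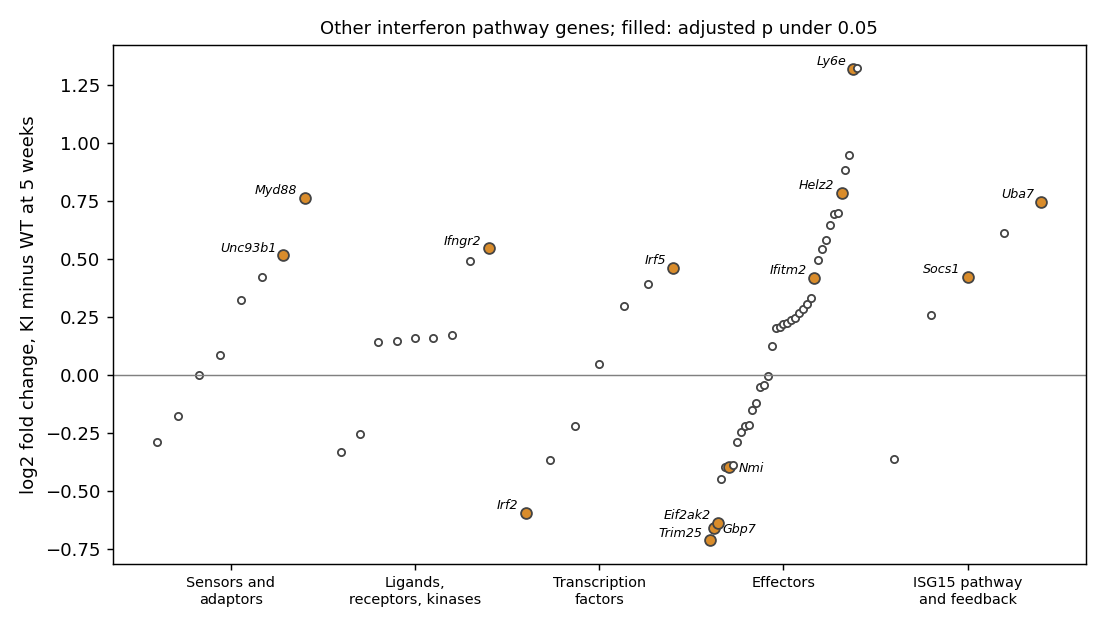
Log2 fold change of KI minus WT at 5 weeks (vertical axis) for the 68 other interferon pathway genes tested, sorted within 5 roles (horizontal axis); each point is a gene, and filled, named points passed at an adjusted p under 0.05. The named points lie on both sides of 0, 9 above and 5 below.

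At 2 and at 44 weeks none of the 68 pathway genes passed between KI and WT, although 2 fell at 44 weeks with array weights. Averaged over ages Mavs (0.29 ± 0.08, SE), the mitochondrial adaptor downstream of Ifih1, rose and Trim25 (-0.57 ± 0.14) fell, which is 2.94% of the 68 against 5.32% of all genes. None of the 68 passed in this average with the leukocyte, endothelial or proximal tubule mean as a covariate, nor without WT arrays 7, 8 and 9. The same held when WT array 2, 9 or 17 or KI array 21, 22, 26 or 31 alone was left out. None rose and 1 fell without WT array 1, 8, 16 or 18 or KI array 19, 23, 24 or 32, whereas 3 rose and 4 fell without WT array 15 and 3 rose and 3 fell without WT array 10.

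With age, Irf9, the DNA-binding subunit of the interferon-activated complex, rose in WT between 2 and 5 weeks (0.81 ± 0.16), as did Tgtp1 (1.44 ± 0.35), an interferon-inducible GTPase, while Ifitm1 (-2.80 ± 0.41), a membrane protein that restricts virus entry, fell. In KI Tgtp1 rose (1.17 ± 0.37) and Ifitm1 fell (-1.66 ± 0.43) between these ages. In KI 7 of the 68 rose and 1 fell, which is 11.8% against 13.7% of all genes. Without KI array 19, 24 or 25 only 2 rose, and without KI array 20 or 26 only 4 rose. In WT 9 rose and 12 fell, which is 30.9% against 33.9% of all genes. This balance turned after quantile normalization (14 rose and 8 fell) and after centring on array medians (13 rose and 10 fell). The WT falls numbered 7 without WT array 1 or 7, 6 without WT array 8, and 8 without WT array 5 or 9, and without WT arrays 7, 8 and 9 together 5 rose and 1 fell.

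Between 5 and 44 weeks 1 of the 68 rose and 13 fell in KI, which is 20.6% against 16.8% of all genes, among them Ifi27l2a (-2.24 ± 0.57), Rtp4 (-1.24 ± 0.31) and Oas1g (-0.90 ± 0.28). The falls numbered 6 without KI array 33 and 8 without KI array 24 or 25. In WT 7 rose and 6 fell between these ages, which is 19.1% against 20.1% of all genes, and Rtp4 was among those that fell (-0.88 ± 0.29). After quantile normalization these WT counts were 2 and 8. Without WT array 9 they were 2 and 4, without WT array 15 they were 3 and 3, and without WT array 16, 17 or 18 only 3 fell.

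No pathway gene passed in either difference of differences as fitted. With array weights 15 were higher and 3 lower for 5 minus 2 weeks, and 0 were higher and 14 lower for 44 minus 5 weeks. Without WT array 10 of 5 weeks the counts were 7 higher and 1 lower for 5 minus 2 weeks, and 1 higher and 8 lower for 44 minus 5 weeks.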

How the data were processed

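Polysomal RNA was amplified in 1 round with the NuGEN WT-Ovation kit and labelled with the Encore Biotin Module, per the labels' protocols. The deposited table holds a log2 signal for each probe set on each array, with the log2 scale read from the range of the values. How the authors summarized and normalized them is not given in the sources used. The array medians lay between 4.82 and 4.99. Precision is limited by how many arrays there were.

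Arrays were grouped by title and source name. Of 45141 probe sets 28898 had 1 symbol in the platform annotation, 551 several, and 15692 were not listed there; symbols were updated through Entrez identifiers (99.3% found). The probe set with the highest mean stood for each gene, and the dimmest 30% of genes were left out. A model of 6 group means over 25 arrays was fitted in R 4.3.3 by lmFit and eBayes of limma 3.58.1, with 19 residual and 3.05 prior degrees of freedom, and p-values were adjusted over 11968 genes. The fit was tested on simulated data with known changes. Intervals are at 95%.

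The members and lists were chosen with earlier results of these data known. The rule for named genes takes every member, the called pathway genes up to 6 each way by size (or the 3 with the smallest p where none is called), and the 5 genes most like each member by Pearson's r; of these the text gives a part. The chromosome 11 genes near Xaf1 are given after their values were seen.

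The alternatives tried were centring on array medians, quantile normalization, a 50% filter or none, the mean of a gene's probe sets, only the arrays compared, array weights, a trended robust prior, a sex covariate, a leukocyte covariate and each array left out in turn. Leaving out WT arrays 7, 8 and 9, the endothelial and proximal tubule covariates and the other probe sets were added after the data were seen. Some genes are not reported here.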

Additional observations from a re-analysis of the deposited data

Results flagged for a closer look

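Of 42 checks of members within groups for a value far from the rest, 1 stood out, where chance gives about 1 in 20. Irf7 on KI array 34 of 44 weeks read 5.66 on the log2 scale, while the nearest of the other 3 KI arrays of that age read 5.89. Those 3 arrays lay between 5.89 and 5.90, so a small gap was large relative to the group's range. The cause was not tested.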

How the results depend on the processing

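No paired analysis was run because the labels give no pairing of arrays, and each title carries a number of its own. The genotype comparison at 5 weeks, with 2 of 7 members called, gave 1 with the dimmest 50% of genes left out (4 members tested), 1 with only the arrays compared, 0 with the leukocyte covariate, and, in settings chosen after seeing the data, 0 without WT arrays 7, 8 and 9, 0 with the endothelial covariate and 0 with the proximal tubule covariate. The average over ages, with 0, gave 3 with array weights (Irf7, Ifih1 and Tlr7) and 0 to 1 with single arrays left out. WT at 5 against 2 weeks, with 3, gave 1 with the 50% filter, 1 without WT arrays 7, 8 and 9, 2 with the mean of a gene's probe sets, 2 with the sex covariate and 4 with the endothelial covariate (Rsad2 added), and Irf7 there was -0.66 (limma adjusted p = 0.0598) with the sex covariate. WT at 44 against 5 weeks, with 0, gave 1 after quantile normalization, 1 after centring on medians, 3 with array weights and 0 to 2 with single arrays left out (calls without WT array 6, 8 or 10). KI at 5 against 2 weeks, with 2, gave 1 with the 50% filter, 1 with the mean of a gene's probe sets and 1 to 2 with single arrays left out (fewer without KI array 21 or 25). KI at 44 against 5 weeks, with 1, gave 0 after quantile normalization, 0 with only the arrays compared and 0 to 1 with single arrays left out (0 without KI array 23, 24, 25, 33 or 34). The differences of differences, with 0 each, gave 1 each with array weights (Irf7), and 0 to 1 for 44 minus 5 weeks with single arrays left out (Ifih1 without WT array 10). Xaf1 at 5 against 2 weeks reversed with the mean of its probe sets (WT -0.43, KI -0.84) and with its other probe set (WT -2.17, KI -2.96). Fewer genes or arrays enter under the 50% filter and with only the arrays compared; for the other settings the cause was not tested.

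Genes called over the whole array ran from 1 to 4821 at 5 weeks between genotypes across these settings, against 2638 as reported, and from 3 to 3109 for the average, against 637. At 5 weeks 64.8% of called genes were higher in KI as deposited, 56.0% after quantile normalization and 49.9% after centring. Between 5 and 44 weeks in WT 56.0% of called genes were higher at 44 weeks as deposited, 37.3% after quantile normalization and 33.0% after centring. For the average the shares were 75.0%, 61.7% and 72.8%, and for KI at 44 against 5 weeks 48.4%, 35.9% and 45.3%.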
